A study of Mus musculus with 4 samples.

Results

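The genes Mbp, Pmp22, Mag, Pmp2, Prx, Mal, Pllp and Ncmap encode proteins that build, seal or anchor the myelin sheath of peripheral nerve. They were taken by gene symbol, and 8 of the 32285 genes in the count matrices matched, each by 1 row. The cells came from the tibialis anterior and gastrocnemius muscles of the hind limb of male S100GFP-tg mice, in which GFP is under the S100B promoter and marks Schwann cells (SCs) for sorting, along with any other cells that use this promoter. Mice of 2 groups were used at 2 months of age, wild type (WT) and Sod1-/- (labelled Sod1KO, lacking copper-zinc superoxide dismutase), both carrying the GFP transgene, and the muscles of 4 mice per genotype were pooled. GFP+ and GFP- cells, both negative for the dead-cell dye propidium iodide, were sorted and loaded separately, which gave 4 libraries of droplet-based single-cell RNA-seq. Each group therefore had 1 library, no test across mice was possible, and a difference between libraries could not be told apart from a difference between genotypes. The samples taken after nerve crush were not analysed here.

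A myelinating Schwann cell (mSC) wraps a single axon segment in many membrane layers. Compact myelin, with MBP on its cytoplasmic faces and PMP22 in its membranes, alternates with channels of non-compact membrane, and the innermost layer faces the axon. A terminal Schwann cell (tSC) caps the neuromuscular junction and makes no sheath, although it comes from the same lineage. The transcription factors SOX10 and EGR2 drive most of the myelin protein genes together, so they are usually read as one program.

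After filtering, 4557 WT GFP+, 5925 Sod1KO GFP+, 1638 WT GFP- and 5143 Sod1KO GFP- cells remained, with median depths of 12264, 12951, 8019.5 and 14658 unique molecular identifiers (UMIs, counts of captured RNA molecules) per cell. Pairs of libraries shared 1 to 13 barcodes. Sod1 itself was at 89.7 CPM (UMIs of the gene per 1000000 UMIs of all genes) in the WT and 95.9 in the Sod1KO GFP+ library, and at 123 and 109 in the GFP- libraries, so the 3′ tags of Sod1 gave no check of the genotype, and "Sod1KO" stands below for the library labelled so. Clusters were built without the 8 genes and named from marker lists that hold none of them. The class called mSC-like held 1077 WT and 658 Sod1KO GFP+ cells (median 6238 and 6118 UMIs), and the class called tSC-like (tSCs or other nonmyelinating SCs) held 388 and 886 (12347.5 and 9542 UMIs). All 6 SC lineage markers were above 20 CPM in both classes, and 11 of 11 WT and 10 of 11 Sod1KO mSC markers were so in mSC-like cells. The GFP- libraries held 4 and 3 mSC-like cells, and no level was taken from them.

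A gene's promoter shows which starts its transcripts can come from, and 2 of the genes are shown for how their start regions differ. Mag (GRCm38.p6, chromosome 7, 30899175 to 30914922, minus strand) had a single distinct match to a motif searched, ACAAAG or its reverse complement CTTTGT, the core that SOX proteins bind, which lies in 2 overlapping windows of its 3. The match, in capitals, lies 67 bases before the first annotated start in the 250 bases of chr7:30914923-30915172, printed along the minus strand:
Mag: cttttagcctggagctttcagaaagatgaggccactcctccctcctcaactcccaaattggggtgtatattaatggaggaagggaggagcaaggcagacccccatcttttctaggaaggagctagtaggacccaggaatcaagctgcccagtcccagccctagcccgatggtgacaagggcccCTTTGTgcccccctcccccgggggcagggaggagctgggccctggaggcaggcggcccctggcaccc
Pmp22 (chromosome 11, 63128982 to 63159547, plus strand) had the most windows of any member, with 4. Its first 2 starts, at chr11:63128732-63128981 and chr11:63131207-63131456, differ in CG dinucleotides, which are in capitals:
Pmp22 first start: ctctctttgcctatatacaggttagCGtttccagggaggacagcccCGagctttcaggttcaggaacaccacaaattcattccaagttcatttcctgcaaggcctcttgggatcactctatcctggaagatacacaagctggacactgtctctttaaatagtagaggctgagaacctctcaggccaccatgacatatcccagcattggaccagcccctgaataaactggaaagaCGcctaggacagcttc
Pmp22 second start: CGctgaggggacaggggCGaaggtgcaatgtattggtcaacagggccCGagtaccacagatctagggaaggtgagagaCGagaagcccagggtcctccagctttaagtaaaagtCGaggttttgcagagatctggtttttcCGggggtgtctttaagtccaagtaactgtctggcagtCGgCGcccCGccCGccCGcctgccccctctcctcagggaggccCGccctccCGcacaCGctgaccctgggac

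The first Pmp22 window held 3 CG dinucleotides at 48.8% GC and the second held 14 at 61.2% GC, against medians of 6 and 52.4% over all 32851 windows of this length in RefSeq. The other Pmp22 windows held 14 and 27. The UMIs count the 3′ end of a transcript and cannot say which start it came from, so the levels of Pmp22 below sum over all starts. Windows were at hand for 6 of the 8 genes (12 windows), not for Mbp and Pmp2. On both strands, ACAAAG was present in 16.5% of all windows, ACAATG in 10.7% and GCGNGGGCG, the site of EGR factors, in 4.7%, and TATAAA on the sense strand in 7.59%. Apart from the Mag match, none of these 4 letter runs was present in the members' windows, which says nothing on whether SOX10 or EGR2 acts on them.

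All 8 genes were at their highest named-class level in mSC-like cells, and they spanned a wide range there. Their sum made up 1.96% of all UMIs in the WT mSC-like class and 1.83% in the Sod1KO one, against 0.169% and 0.118% in tSC-like cells. Counts are 1 per captured molecule and were not divided by transcript length, since only the 3′ end is read. Intervals in brackets are 95% intervals that cover counting error only.

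Pmp22, a membrane protein of compact myelin whose duplication causes the most frequent inherited demyelinating neuropathy, was the most abundant, at 7680 CPM (7610 to 7740) in WT and 7070 (6990 to 7150) in Sod1KO mSC-like cells. Mbp, the basic protein that holds the cytoplasmic faces of myelin together and whose mRNA is carried out into the sheath, came next with 5730 (5670 to 5780) and 4790 CPM (4720 to 4850). Its UMIs were counted over the whole gene, which also gives rise to the golli transcripts of other cells. Mal, a proteolipid of membrane rafts and vesicle transport, stood at 2110 (2070 to 2140) and 2090 CPM (2050 to 2130). These 3 genes kept the same order in both libraries, with no overlap of neighbouring intervals.

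Ncmap, a small membrane protein of non-compact myelin, and Prx, the periaxin gene, which links the outer sheath through DRP2 to the basal lamina, formed the middle of the order. Ncmap was at 1650 (1620 to 1680) and 1990 CPM (1950 to 2040), and Prx at 1380 (1350 to 1400) and 1310 CPM (1280 to 1350), so Ncmap stood above Prx in both libraries. The Prx gene (chromosome 7, 27499305 to 27520041) overlaps the annotated gene Gm15541, and how reads were shared there is not known from the counts. Pllp, which encodes plasmolipin, a relative of MAL, was at 599 (581 to 617) and 465 CPM (445 to 486). Mag, the adhesion glycoprotein that faces the axon, was at 407 (392 to 422) and 450 CPM (431 to 471), so that Pllp and Mag were clearly apart in WT and had overlapping intervals in Sod1KO mSC-like cells. Pmp2, a fatty acid binding protein of myelin, was the least abundant at 56.9 (51.5 to 62.7) and 144 CPM (133 to 156).

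**Figure D1:**
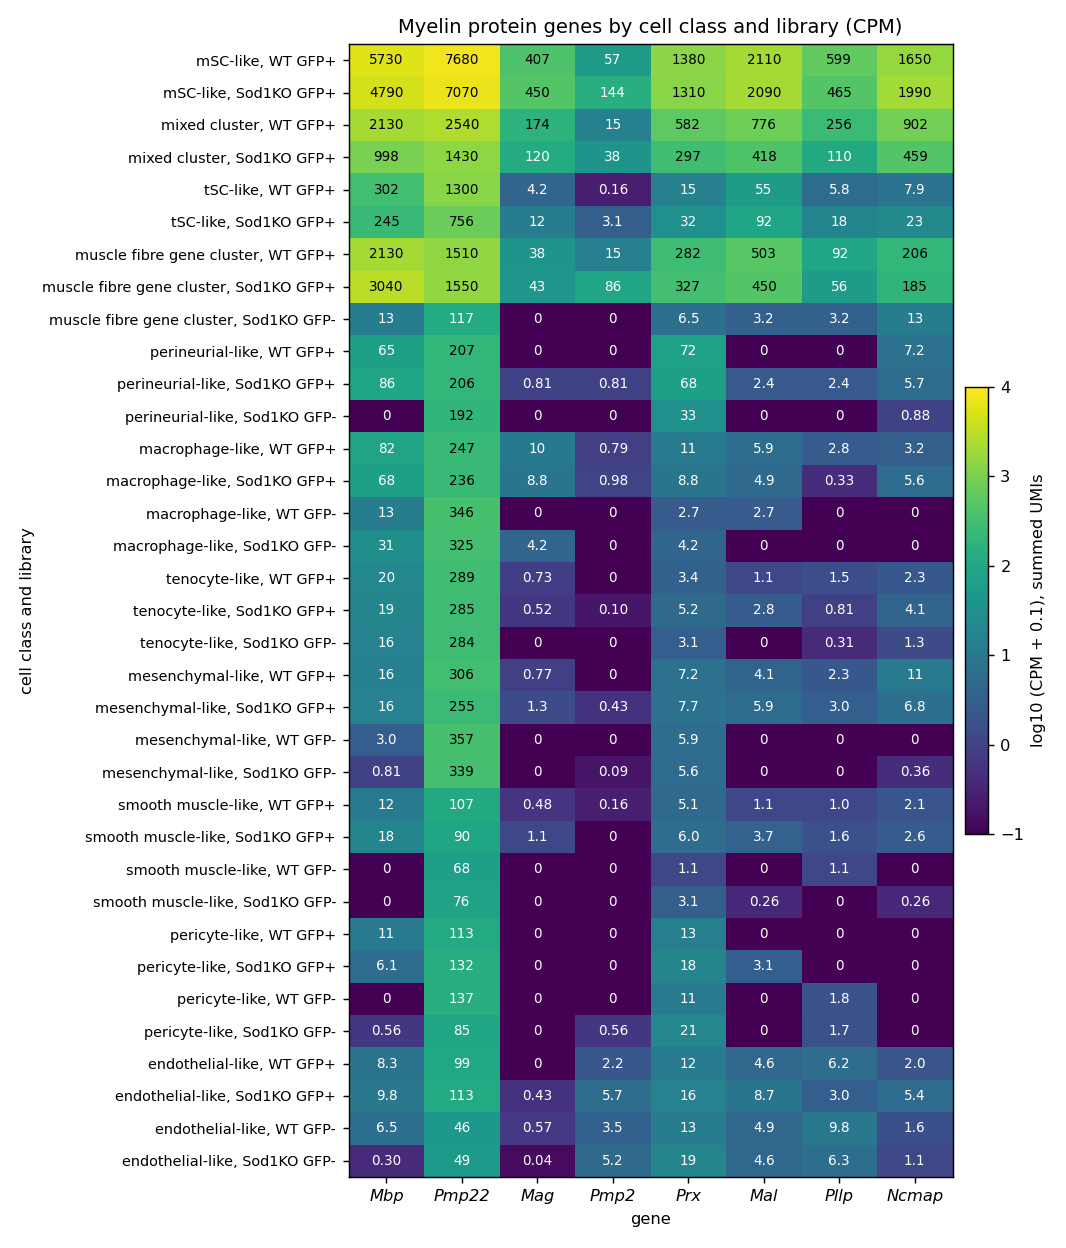
The heat map gives each gene's level in CPM of summed UMIs, with colour as log10(CPM + 0.1), for each cell class (rows) of at least 20 cells in each library. The top pair of rows, mSC-like cells, holds the highest value of every column, from 7680 CPM for Pmp22 to 144 for Pmp2 (Sod1KO), while Pmp22 alone stays above 40 CPM in every row.

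Compared with all other cells of the same GFP+ library, SC-like cells (mSC-like and tSC-like) held more of every member. All 8 of 8 were higher by over 2-fold in both libraries, where 17.3% of 17644 genes were so in WT and 16.2% of 18389 in Sod1KO. The log2 ratios ran from 3.15 for Ncmap to 3.87 for Pmp2 in WT, and from 2.81 for Pmp22 to 3.76 for Mal in Sod1KO. The median over the members was 3.48 and 3.39, against 0.10 and 0.06 over all genes. Mbp was at 3210 CPM in WT SC-like cells and 248 in the other cells, and Pmp22 at 4720 and 465.

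Much of what the other cells held lay in 2 clusters outside the named SC classes, a cluster with both mSC and perineurial markers (here the mixed cluster) and a cluster of shallow barcodes led by the muscle fibre genes Tnnc2, Myl1 and Ckm. With these left out, an alternative chosen after seeing the data, the log2 ratios ran from 4.46 for Pmp22 to 8.85 for Mal in WT and from 3.42 for Pmp22 to 6.89 for Mal in Sod1KO. The level of Mbp in the remaining cells was then 19.6 CPM in WT and 24.3 in Sod1KO, with ratios of 7.36 and 6.0. Of all Mbp UMIs of the kept cells, 71.5% lay in mSC-like cells in the WT and 62.9% in the Sod1KO GFP+ library. For Pmp22 these shares were 61.0% and 46.8%, the lowest of the 8, since tenocyte-like cells held 6.15% and 13.3% of its UMIs and tSC-like cells 8.92% and 12.4%. The mixed cluster held 17.5% to 31.6% of the UMIs of each member in WT and 16.6% to 29.3% in Sod1KO.

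The 2 SC classes differed in their levels of the members. All 8 members were higher by over 2-fold in mSC-like than in tSC-like cells of both libraries, against 11.8% of 13141 genes in WT and 9.95% of 13393 in Sod1KO. Pmp22 and Mbp had the smallest log2 ratios, 2.57 (2.53 to 2.60) and 4.24 (4.18 to 4.31) in WT and 3.23 and 4.29 in Sod1KO. Mal followed with 5.26 and 4.5. For the other members with more than 3 UMIs in tSC-like cells, the WT values were 6.54 for Prx, 6.59 for Mag, 6.68 for Pllp and 7.70 (7.29 to 8.13) for Ncmap, and the Sod1KO values 5.35, 5.20, 4.68 and 6.45. Pmp2 had 1 UMI in the WT tSC-like cells, with a ratio of 8.46 (5.97 to 13.76), and 5.53 in Sod1KO.

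In tSC-like cells Pmp22 was at 1300 CPM (1270 to 1320) in WT and 756 (739 to 772) in Sod1KO, and Mbp at 302 (288 to 316) and 245 (236 to 255). Every other member was below 100 CPM. Mal was at 54.9 (49.2 to 61.1) and 92.3 (86.7 to 98.2), Prx at 14.7 and 32.3, Ncmap at 7.94 and 22.7, Pllp at 5.83 and 18.2, Mag at 4.21 and 12.3 and Pmp2 at 0.162 and 3.12. By CPM, Pmp22 and Mbp were thus the highest members in SCs that carry no mSC cluster name. Relative to mSC-like cells, only Pmp22 (3.23) stood apart in Sod1KO. There the log2 ratio of Mbp (4.29) was near those of Mal (4.5) and Pllp (4.68).

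Free RNA in droplets can give UMIs to cells that do not express a gene, so the share of cells with a UMI was set beside endothelial-like cells, which should lack the myelin program. Each cell was thinned to 1000 UMIs, since the classes differ in depth. Mbp was then found in 25.8% of WT and 19.5% of Sod1KO tSC-like cells (90.7% and 71.1% unthinned) and in 1.65% and 0.99% of endothelial-like cells (7.26% and 4.62% unthinned, median 11391 and 11545 UMIs). Pmp22 was found in 68.0% and 46.3% of tSC-like and in 5.28% and 8.91% of endothelial-like cells, and Mal in 6.72% and 9.39% against 0.66% in both. For Prx the tSC-like shares were 1.81% and 2.83% and the endothelial-like shares 1.98% and 4.62%. Pmp22, Prx, Pllp and Pmp2 were, however, also present in endothelial-like cells of the GFP- libraries. There, unthinned WT and Sod1KO shares were 29.5% and 32.9% for Pmp22, 12.0% and 17.8% for Prx, and 10.8% and 8.23% for Pllp. For Pmp2 they were 3.87% and 6.16%, so endothelial-like cells give no background for these genes. Pllp (0.775% and 1.47% against 0.66% and 0.33%), Mag (0.258% and 0.792% against 0 and 0), Ncmap (1.81% and 1.24% against 0 and 0.66%) and Pmp2 (0 and 0.339% against 0 and 0.99%) rested on few cells at this depth. For Ncmap in WT, the interval of the tSC-like share (0.73% to 3.69%) overlapped that of the endothelial-like share of 0 of 303 cells (0 to 1.21%, as for Mag in both libraries).

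The tSC-like class was made of 3 clusters, and they differed in their myelin genes. The cluster led by Bche held 313 WT and 211 Sod1KO cells, the cluster led by Btc held 62 and 587, and the cluster led by Tafa2 held 13 and 88. In the Bche cluster Pmp22 was at 1290 and 1120 CPM and Mbp at 242 and 196, while Mal was at 13 and 11.9, Prx at 8.19 and 11.9, and Mag, Pllp, Ncmap and Pmp2 were below 5 CPM. Against cells outside the SC classes, without the mixed and fibre gene clusters, Mbp in the WT Bche cluster was higher by a log2 ratio of 3.62, Pmp22 by 2.59 and Mal by 2.38, whereas Mag stood at 0.29, Prx at 0.27, Pllp at −0.15 and Ncmap at −1.42. In Sod1KO the members' ratios in this comparison lay closer together, from −0.39 to 3.01 with a median of 0.73. In WT they ran from −1.44 to 3.62 with a median of 0.28.

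The clusters also differed in the balance of Mbp to Mag, Prx, Mal, Pllp and Ncmap, called restricted below. These 5 genes were chosen for their low levels in tSC-like cells, after their values were seen, so a high value there is fixed by the choice and the values are a description. In the larger of the 2 mSC-like clusters, 93.2 Mbp UMIs (92.0 to 94.5) were counted per 100 UMIs of the 5 restricted genes in WT and 75.4 (74.0 to 76.8) in Sod1KO. In the Bche cluster the value was 929 (783 to 1110) and 567 (460 to 706). The Btc cluster, at 128 and 110, and the mixed cluster, at 79.0 and 71.1, lay closer to the mSC-like value. Outside the SC clusters of the GFP+ libraries, macrophage-like cells stood at 246 and 240 and endothelial-like cells at 33.9 and 28.8. Barcodes removed for 10% or more mitochondrial UMIs held 116 in WT and 99.1 in Sod1KO. Pmp22 UMIs per 100 restricted UMIs were 125 and 111 in the large mSC-like cluster and 4970 and 3250 in the Bche cluster.

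**Figure D2:**
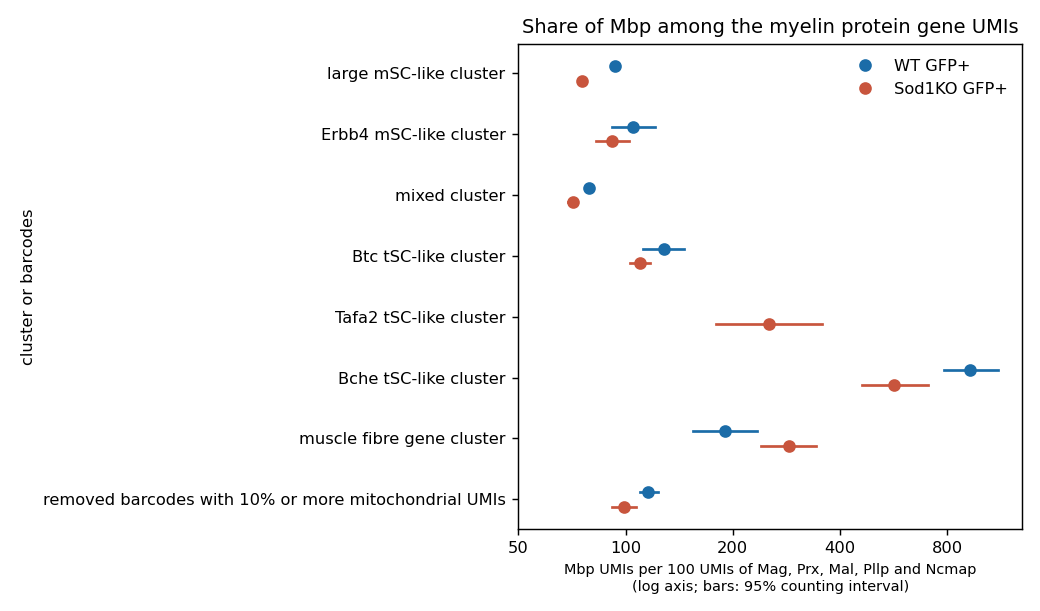
Points give Mbp UMIs per 100 UMIs of Mag, Prx, Mal, Pllp and Ncmap (log axis) for SC clusters, the muscle fibre gene cluster and removed barcodes of the GFP+ libraries, with 95% counting intervals as bars. The Bche cluster lies furthest to the right (929 in WT, 567 in Sod1KO), while the mixed and Btc clusters lie within 71.1 to 128.

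Between genotypes, the members in mSC-like cells did not move as a block. In Sod1KO, 5 of 8 were lower than in WT, where 54.2% of 12089 genes were lower, and the median log2 ratio of the members was −0.04 against −0.03 over all genes. None was lower by over 1.5-fold (background 6.99%) and 1 of 8, Pmp2, was higher by over 1.5-fold (background 5.83%). A count of 5 is near the background share and is no result about the members.

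Pmp2 had a log2 ratio of 1.34 (1.16 to 1.52), Ncmap 0.27 (0.23 to 0.31) and Mag 0.15 (0.06 to 0.23). Pllp stood at −0.37 (−0.44 to −0.29), Mbp at −0.26 (−0.28 to −0.23), Pmp22 at −0.12 (−0.14 to −0.10), Prx at −0.07 (−0.11 to −0.02) and Mal at −0.01 (−0.05 to 0.03). With cells limited to more than 500 genes and less than 5% mitochondrial UMIs, Pmp22 and Prx stood at 0.0845 and 0.0511 and only 2 of 8 members, Mbp and Pllp, were lower. Within 1 library per genotype the interval covers the sampling of UMIs, so a ratio that excludes 0 is not shown to be larger than the spread between mice.

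The mSC-like cells were clustered again, without the members, and gave 6 subclusters, 5 of which had at least 17 cells of each library. In all 5, Mbp was lower in Sod1KO (log2 ratios −0.38 to −0.17), as were Pmp22 (−0.42 to −0.12), Prx (−0.15 to −0.01) and Pllp (−0.90 to −0.33), and Pmp2 was higher (0.11 to 0.99). The counting intervals of Mbp, Pmp22 and Pllp excluded no change in each. That of Prx included no change in the subclusters led by Bambi, Lockd and Igfbp6. That of Pmp2 included it in those led by Epha6 and Igfbp6. Mag (−0.08 to 0.24), Mal (−0.10 to 0.07) and Ncmap (−0.26 to 0.50) were higher in 3 and lower in 2. The subclusters share the same pair of libraries and are not replicates.

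The sixth subcluster, led by Lgals3, Cxcl14 and Kcnj10, held 81 Sod1KO cells (12.3% of Sod1KO mSC-like cells) and 2 WT cells (0.186%). Its Pmp2 level was 365 CPM (323 to 411), the highest of any subcluster, and its 275 Pmp2 UMIs were 43.3% of those of all Sod1KO mSC-like cells. Mag was also highest there, at 689 CPM (631 to 751), against 315 to 490 in the others. A group of cells found almost in 1 library alone may mark that library. Without this subcluster, Mag in mSC-like cells stood at a log2 ratio of −0.0205 in place of 0.15. Within the 5 other subclusters the Pmp2 ratio was 0.11 to 0.99, below the 1.34 over all mSC-like cells.

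Other members marked other subclusters. Pmp22 was highest in the cells led by Epha6, Slit2 and Erbb4, a receptor for neuregulins, at 12100 CPM in WT and 9020 in Sod1KO, and lowest in those led by Igfbp6 and Dcn, genes of connective tissue cells, at 5060 and 4200. The leading genes of the Igfbp6 subcluster also included the perineurial markers Cldn1, Lypd2 and Krt19. The Epha6 subcluster made up 8.54% of mSC-like cells in WT and 16.6% in Sod1KO. Ncmap was lowest in it, at 1250 and 1160 CPM, against 1610 to 1870 in the other WT and 1520 to 2640 in the other Sod1KO subclusters. Pmp2 was highest in it in WT, at 127 CPM, against 30.1 to 76.4 elsewhere. This value rests on few cells, since 88 of the 92 WT cells held at most 2 of its 66 UMIs each. The share of cells with a Pmp2 UMI was 13.0% there and 14.3% to 17.3% in the other WT subclusters. Mbp ranged from 4150 to 6380 CPM in WT and 3440 to 5580 in Sod1KO.

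**Figure D3:**
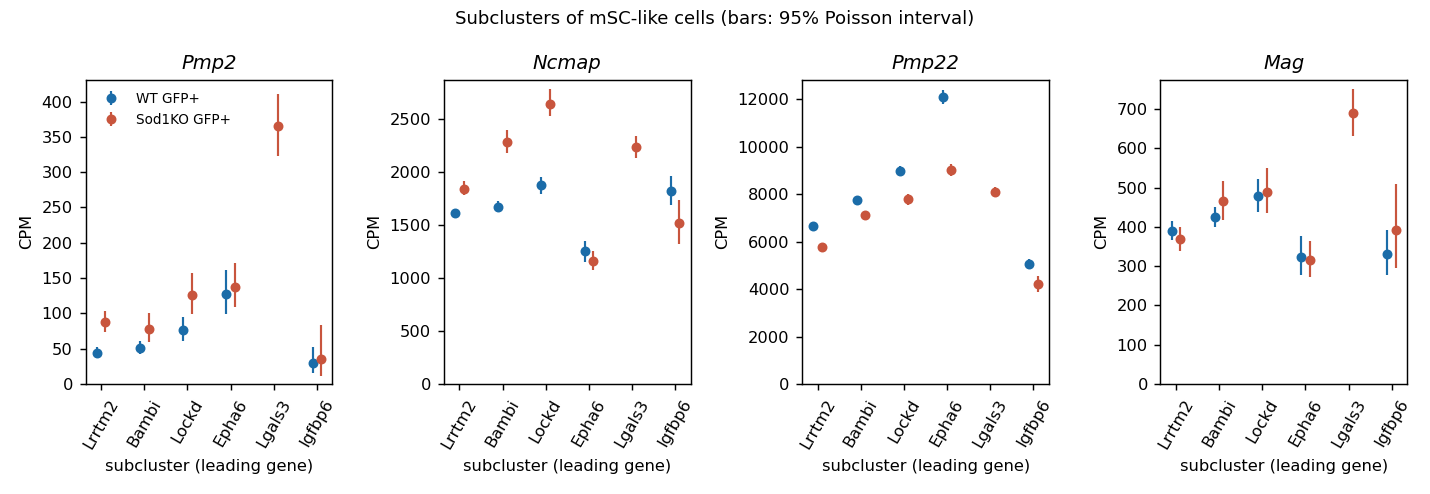
The 4 panels give CPM of Pmp2, Ncmap, Pmp22 and Mag in each subcluster of mSC-like cells, named by a leading gene, for the WT and Sod1KO GFP+ libraries, with 95% Poisson intervals as bars; the Lgals3 subcluster has no WT point, since it held 2 WT cells. Pmp2 reaches 365 CPM in the Lgals3 subcluster and Pmp22 reaches 12100 in the WT Epha6 subcluster.

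Mbp was found in every mSC-like cell, while most cells lacked Pmp2. Mag was at 0 in 143 WT cells (13.3%) and 105 Sod1KO cells (16.0%), and Pllp in 55 (5.11%) and 65 (9.88%). The median cell held 35 Mbp UMIs in WT and 28 in Sod1KO, the central range (10th to 90th percentile) was 18 to 61 and 12 to 56.3. Pmp22 had medians of 44 and 38 UMIs, and its top cells held 684 and 259. Medians were 13 and 12 for Mal, 8 and 8 for Prx, 3 and 3 for Pllp and 2 and 2 for Mag.

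Ncmap had medians of 9 and 11 UMIs, yet 126 WT cells (11.7%) and 28 Sod1KO cells (4.26%) held none, while Mal, with a similar median, was at 0 in 5 and 10 cells. Cells with at most 2 Ncmap UMIs made up 27.1% of the WT and 11.4% of the Sod1KO cells. Thinned to 1000 UMIs, 65.0% (62.0% to 67.8%) of WT and 74.2% (70.6% to 77.5%) of Sod1KO cells held an Ncmap UMI. In WT these low cells were spread over the subclusters, at 24.0%, 29.8%, 27.5% and 34.8% in the 4 largest and 12.2% in the Igfbp6 subcluster. In Sod1KO they stood at 26.6% in the Epha6 subcluster and at 2.47% to 10.2% in the others.

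Pmp2 had no UMI in 84.0% of the mSC-like cells of WT and 71.1% of those of Sod1KO, and 29 WT and 18 Sod1KO cells held 50% of its UMIs, with 10.9% and 11.7% in the top cell. In cells thinned to 3000 UMIs, the variance over the mean was 2.65 in WT and 3.49 in Sod1KO for Mbp, 5.58 and 6.67 for Pmp22, 4.08 and 3.15 for Ncmap, 1.89 and 3.88 for Pmp2, and 1.18 to 1.78 for Mag, Prx, Mal and Pllp. A value of 1 is what UMI sampling alone gives.

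**Figure D4:**
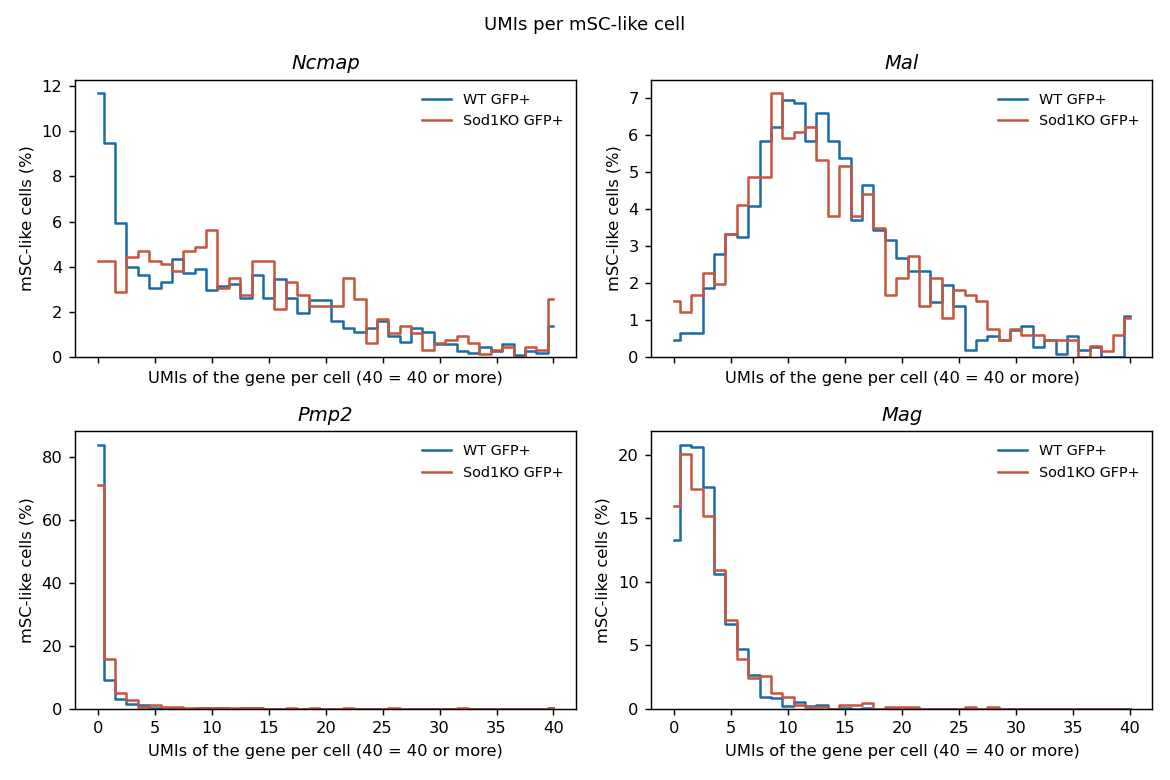
Histograms give the percent of mSC-like cells by UMIs of Ncmap, Mal, Pmp2 and Mag per cell, for the WT and Sod1KO GFP+ libraries, with 40 standing for 40 or more. Ncmap in WT has a peak at 0 (11.7% of cells) beside a broad body, while Mal has a single hump with 0.46% of WT cells at 0.

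Across the thinned mSC-like cells (1047 WT and 630 Sod1KO), Mbp and Pmp22 had the closest relation, with Pearson's r of 0.412 and 0.437 and Spearman's rho of 0.441 and 0.459. Mal with Pmp22 had r of 0.256 and 0.358, and Mbp with Mal 0.242 and 0.298. Ncmap had r between −0.043 and 0.058 with each of the other members in WT and between −0.024 (Prx) and 0.178 (Mbp) in Sod1KO. These cells share 1 library each and are not replicates, and weak values in sparse counts were not read further.

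The mixed cluster held 315 WT and 325 Sod1KO cells at median depths of 18394 and 21181 UMIs, deeper than the mSC-like cells. It had 11 of 11 mSC markers and 6 of 7 perineurial markers above 20 CPM in both libraries, the perineurial list summing to 2860 and 2580 CPM, against 103 and 81.6 in mSC-like cells. Whether it holds doublets of an mSC and a perineurial cell was not tested. Against the large mSC-like cluster, the members' log2 ratios ran from −0.89 to −1.92 in WT and from −1.93 to −2.37 in Sod1KO. The share of all genes that were lower in this comparison was not counted.

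From WT to Sod1KO, 7 of 8 members were lower in the mixed cluster (background 48.8%) and 6 of 8 by over 1.5-fold (background 9.16%). Mbp went from 2130 to 998 CPM (log2 −1.09), Pmp22 from 2540 to 1430 (−0.83), Prx from 582 to 297 (−0.97), Mal from 776 to 418 (−0.89), Pllp from 256 to 110 (−1.22) and Ncmap from 902 to 459 (−0.97). Mag went from 174 to 120 (−0.53), while Pmp2 was higher, at 15.3 and 38 (1.32). The median ratio was −0.93 for the members and 0.01 for all genes. The mSC marker list, which holds none of them, summed to 11700 CPM in WT and 6160 in Sod1KO in this cluster, and the tSC list to 362 and 614, with 7 and 8 of 11 tSC markers above 20 CPM. The part of cell makeup in the lower levels was not tested.

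The Sod1KO cells of the mixed cluster were also less alike. The members took 0.721% of the UMIs of the median WT cell, with 0.385% at the 10th and 1.05% at the 90th percentile, and 0.376% of the median Sod1KO cell, with 0.031% and 0.913%. Mbp was at 0 in 1 WT and 42 Sod1KO cells, and Ncmap in 14 and 103. Thus the lower end of the range lay further down in Sod1KO than the upper end did.

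Over the whole tSC-like class, Sod1KO had 6 of 8 members higher (background 46.3% of 13709 genes), all 6 by over 1.5-fold (background 11.6%), and 2 of 8 lower (background 53.7%), of which 1 by over 1.5-fold (background 15.4%). Pmp22 stood at a log2 ratio of −0.78 (−0.82 to −0.73) and Mbp at −0.30 (−0.39 to −0.21). Mal was higher by 0.75 (0.57 to 0.93), Prx by 1.13 (0.79 to 1.48), Ncmap by 1.52 (1.07 to 1.99), Mag by 1.54 (0.93 to 2.21) and Pllp by 1.64 (1.12 to 2.19). Pmp2, from 1 WT UMI, had a ratio of 4.27 (1.69 to 9.61).

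The class differed in its makeup between the libraries, and the values within its Btc cluster went elsewhere. The Btc cluster held 62 of 388 WT and 587 of 886 Sod1KO tSC-like cells. In it 7 of 8 members were lower in Sod1KO (background 50.5%), all 7 by over 1.5-fold (background 19.3%). There Mbp went from 986 to 264 CPM (−1.90), Mal from 523 to 128 (−2.03), Ncmap from 77 to 30.6 (−1.33), Pmp22 from 1450 to 640 (−1.18), Mag from 35.6 to 16.3 (−1.13), Prx from 84.9 to 40.8 (−1.06) and Pllp from 49.4 to 24.7 (−1.0). Pmp2 had 0 UMIs in these WT cells and 34 UMIs (4.58 CPM) in Sod1KO. Its ratio fell below 0 only through the floor of 3 UMIs, which is 5.93 CPM in WT, so its direction is not known. A share of the Btc cells carried much of this, since 8 of 62 WT and 88 of 587 Sod1KO cells held 50% of the members' UMIs, which are mostly those of Pmp22 and Mbp. For the less abundant genes, 50% of the WT UMIs lay in 3 of the 62 cells for Mag (18 UMIs in all), Prx (43) and Ncmap (39) and in 4 for Pllp (25), so these ratios rest on a few WT cells.

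In the Bche cluster, Mbp had a ratio of −0.30, Pmp22 of −0.20, Mal of −0.12, Prx of 0.54 and Ncmap of 1.60, the last from levels of 1.42 and 4.31 CPM. Mag (1.42 and 3.65 CPM) and Pllp (1.96 and 2.65 CPM) were also higher in Sod1KO, from few UMIs. Among the members with a ratio, Mal alone differed in sign from the whole class. Of the 5 members with at least 20 UMIs over both libraries, 3 were lower (background 59.8%). Prx, Mag, Mal, Pllp and Ncmap were therefore higher in Sod1KO over the whole class and lower within the cluster that held most of the Sod1KO cells. Over the class, the mSC marker list summed to 1070 CPM in WT and 1440 in Sod1KO, with 5 and 7 of 11 markers above 20 CPM, and the tSC list to 6410 and 3410. The part of mSC RNA in these levels was not tested.

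**Figure D5:**
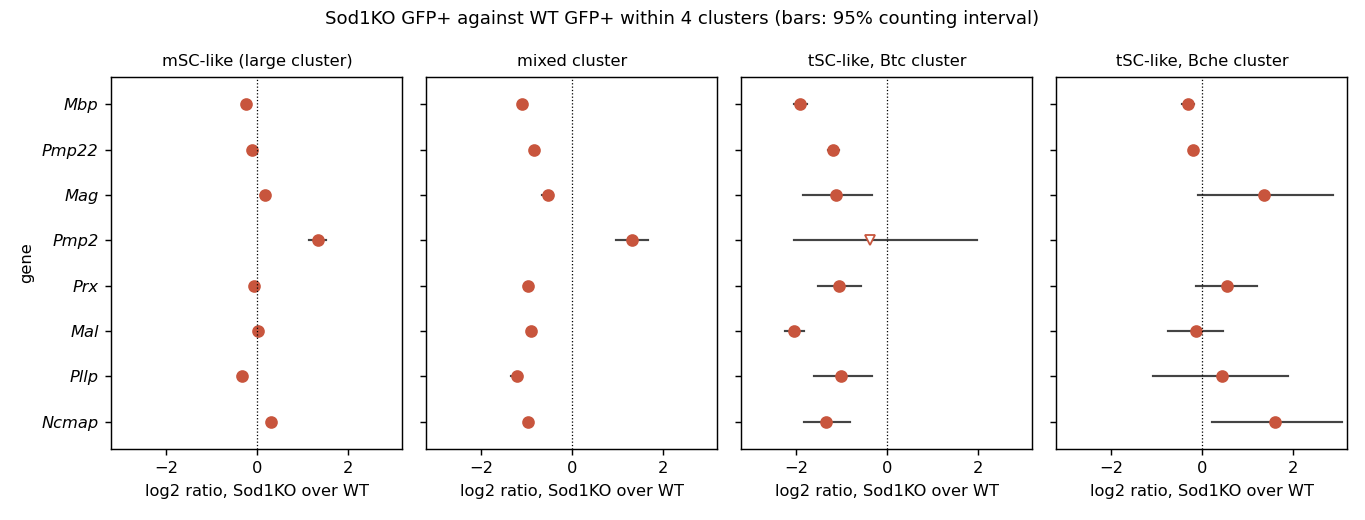
Panels give the log2 ratio of Sod1KO over WT for each gene in the large mSC-like cluster, the mixed cluster and the Btc and Bche clusters, with 95% counting intervals as bars and an open triangle where the WT count was 0 and a floor of 3 UMIs was used. The points lie near 0 in the first panel except for Pmp2, and left of 0 in the Btc cluster, where Mal reaches −2.03.

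Outside the SC classes, Pmp22 was the member found throughout. It was at 289 and 285 CPM in WT and Sod1KO tenocyte-like cells of the GFP+ libraries, 306 and 255 in mesenchymal-like, 247 and 236 in macrophage-like and 207 and 206 in perineurial-like cells. The GFP- libraries, which held hardly any SCs, gave 357 and 339 in mesenchymal-like, 346 and 325 in macrophage-like and 284 in Sod1KO tenocyte-like cells. Levels were lower in smooth muscle-like cells, at 107 and 89.9 in GFP+ and 68 and 76.4 in GFP- libraries, and in endothelial-like cells, at 98.6 and 113 in GFP+ and 45.5 and 48.8 in GFP- libraries. PMP22 is also known as a growth arrest protein of cultured fibroblasts.

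Outside SCs, several classes had more Mbp in the GFP+ than in the GFP- sort. In perineurial-like cells it was at 65.1 and 86.0 CPM in the GFP+ libraries and had 0 UMIs in the 110 cells of the Sod1KO GFP- library, which allows up to 1.31 CPM. In smooth muscle-like cells it was at 11.6 and 18 in GFP+ and at 0 UMIs in GFP- libraries, in mesenchymal-like cells at 15.5 and 16.1 in GFP+ and 0.808 in Sod1KO GFP-, and in Sod1KO endothelial-like cells at 9.78 in GFP+ and 0.3 in GFP-. The WT endothelial-like cells had 8.35 CPM (5.91 to 11.5) in GFP+ and 6.47 (4.72 to 8.66) in GFP-, with overlapping intervals. Macrophage-like cells held 81.8 and 68.5 CPM in GFP+ and 13.3 and 30.8 in GFP- libraries. Tenocyte-like cells did not follow this, with 18.6 CPM in Sod1KO GFP+ and 16.4 in Sod1KO GFP-, where 107 of 393 cells (27.2%) had an Mbp UMI before and 1.02% after thinning. Their Mbp count per 100 restricted UMIs was 348 in the GFP- library, against 75.4 in mSC-like cells. The part of free RNA in these differences was not tested.

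Prx had levels of its own in perineurial-like cells, at 72.3 and 68.2 CPM in GFP+ and 32.9 in Sod1KO GFP- libraries, and in endothelial-like cells, at 11.9 and 16.3 in GFP+ and 13.1 and 18.7 in GFP- libraries. In pericyte-like cells it was at 13.4 and 18.4 and at 10.7 and 20.6. The Prx level was thus not lower in GFP- endothelial-like cells, while in pericyte-like cells it was lower in WT and higher in Sod1KO GFP- cells. In smooth muscle-like cells Prx was at 5.11 and 6.04 CPM in GFP+ and at 1.06 (1 UMI) and 3.12 in GFP- libraries. Pllp in endothelial-like cells was at 6.15 and 3.04 CPM in GFP+ and 9.78 and 6.35 in GFP- libraries, and Pmp2 at 2.2 and 5.65 and at 3.45 and 5.23. Mal reached 41.1 CPM in the endothelial-like cluster led by Esm1 in the Sod1KO GFP- library, where 71 UMIs lay in 6 of 66 cells. Ncmap reached 42.9 CPM in a WT GFP+ cluster led by Smim41, from 54 UMIs in 6 of 79 cells.

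The muscle fibre gene cluster held 71 WT and 93 Sod1KO GFP+ barcodes at medians of 1021 and 1133 UMIs. Mbp was at 2130 and 3040 CPM there, above Pmp22 at 1510 and 1550, an order otherwise found among the SC clusters in the Tafa2 cluster (Mbp 273 and Pmp22 231 CPM in Sod1KO). Its 190 and 287 Mbp UMIs per 100 restricted UMIs lay above the mSC-like values. A few barcodes carried it, since 4 of 71 and 3 of 93 held 50% of the Mbp UMIs and 37 and 62 had none. The 41 such barcodes of the Sod1KO GFP- library gave 13 CPM.

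Other genes of the myelin program were counted from fixed lists, and none of those with a ratio passed 1.5-fold between genotypes in mSC-like cells. Of 9 other myelin proteins, 8 had a ratio and 3 were higher and 5 lower in Sod1KO, with a median log2 ratio of −0.10. Over all genes 54.2% were lower in Sod1KO, 5.83% were higher and 6.99% lower by over 1.5-fold, and the median was −0.03, and the counts of each list below are to be read beside these. The tetraspanin Cd9 stood at 4950 and 4070 CPM (−0.28), the myelin enzyme Cnp at 1580 and 1390 (−0.19) and Cmtm5 at 189 and 182 (−0.06). The tight junction gene Cldn19 (976 and 993 CPM, 0.03) and the connexin genes Gjb1 (119 and 123, 0.05) and Gjc3 (881 and 900, 0.03) lay close to 0. Tspan2 had 4 and 8 UMIs, under the 20 set for a ratio. Cldn19, Gjb1 and Cmtm5 are among the markers that named the classes, so their class values are a description. Against tSC-like cells, Gjb1 (7.19 in WT) and Cldn19 (6.53) were separated like the restricted members, Cnp (2.66), Cd9 (1.72) and Gjc3 (1.10) less so, and Cmtm5 (−0.77) and Tspan2 (−4.71) were higher in tSC-like cells.

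Of 6 genes of the Cajal bands and the basal lamina link, where periaxin works, 4 were higher and 2 lower in Sod1KO (median 0.08). The largest ratio was that of Drp2, the partner of periaxin, at 1240 and 869 CPM (−0.51), beside −0.07 for Prx itself. Ezr stood at 0.23, Itga6 at 0.19 and Utrn at 0.11. Of 9 regulators of myelination, 5 were higher and 4 lower (median 0.05). Egr2, the factor that turns on the program, was at 367 and 268 CPM (−0.45) and Pou3f1, which acts before it, at 1130 and 851 (−0.41), while Yy1 stood at −0.30 and Tead1 at 0.23.

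Of 6 negative regulators 5 were higher and 1 lower (median 0.07), with Sox2 at 0.33, Id2 at 0.23, Id4 at 0.08 and Egr1 at −0.29. Of 10 genes of myelin lipid synthesis 8 were higher and 2 lower (median 0.10), with the cholesterol enzymes Sqle at 0.18 and Hmgcs1 at 0.14 and the galactolipid enzyme Ugt8a at −0.15. All 10, of which Ugt8a and Fa2h are mSC markers, were higher in mSC-like than in tSC-like cells of both libraries, with medians of 1.73 in WT and 2.09 in Sod1KO against −0.18 and −0.24 over all genes. Of 7 other demyelinating neuropathy genes with a ratio 4 were higher and 3 lower (median 0.11), with Litaf at 0.43, Mtmr2 at 0.36, Sh3tc2 at 0.34 and Sbf2 at 0.11.

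Mbp, Mag and Mal are shared with the oligodendrocytes of the central nervous system, whose own markers were at or near 0 in mSC-like cells. Mog and Olig2 had 0 UMIs in both libraries, Mobp was at 0.421 and 0 CPM, Olig1 at 0.14 and 0, Opalin at 0.983 and 0.453 and Cldn11 at 3.65 and 2.49. In tSC-like cells Mog was at 39.2 CPM in WT and 11.7 in Sod1KO, Olig1 at 0 and 36.2 (395 UMIs), Cldn11 at 2.75 and 12.8, Opalin at 0 and 4.22, Olig2 at 0 and 1.01 and Mobp at 0 and 0.0917.

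Over 45 units of class and library, the 5 genes among 8567 with the pattern most like the mean of the members were Ugt8a (Pearson's r 0.975), Cldn19 (0.974), Dusp15 (0.973), Fa2h (0.961) and Bcas1 (0.959). The units share 4 libraries and their depth, and r is a description. Ugt8a, Cldn19 and Fa2h are among the mSC markers that named the classes, so their place is partly built in. Of the members themselves, Ncmap (0.963), Mal (0.957) and Mag (0.943) were closest to the mean of the other 7, followed by Pllp (0.918), Mbp (0.893) and Pmp2 (0.877), and Pmp22 (0.862) and Prx (0.855) were furthest.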

How the data were processed

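Single-cell RNA-seq was done by the authors on sorted GFP+ and GFP- cells of pooled muscles (10x 3′ chemistry). Per the labels, reads were aligned to mm10 with Cell Ranger 7.1.0 and analysed with Seurat 4.30. The deposited matrices hold raw UMI counts per gene and cell, 21959719 to 105954116 per library, with no correction for free RNA or removal of doublets, which the authors applied later. Here cells were kept at over 200 genes and under 10% mitochondrial UMIs, and likely doublets were removed by a score over 50 neighbours among simulated pairs, at an assumed rate of 0.8% per 1000 barcodes (27 to 366 per library). Cells were clustered by Leiden at resolution 1 (leidenalg 0.10.2) on 2000 variable genes and 30 principal components, without the 8 genes, into 36 clusters, and named where at least 3 markers and 50% of a list exceeded 20 CPM and 2-fold. Clusters left unnamed held 14.1% to 57.3% of a library's kept cells. Summed counts per class and library gave CPM with exact Poisson intervals, ratios with conditional binomial intervals and shares with Clopper-Pearson intervals (scipy 1.17.1). A count of 0 was replaced by a floor of 3 UMIs in ratios, and pairs at or under it got none. With 1 library per group no test was run. The ratio code was tested on simulated data. Promoter windows came from RefSeq (GRCm38.p6). All 8 members are named with values. From the fixed lists, every gene was counted, and up to 4 per list are named by the size of the genotype ratio in mSC-like cells, or all for the other myelin proteins and oligodendrocyte markers. Some genes of the lists are counted but not reported here by name. The members and lists were chosen with earlier results of these data known.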

Additional observations from a re-analysis of the deposited data

Results flagged for a closer look

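Between genotypes, Prx and Pllp moved in opposite directions in the 2 SC classes. The log2 ratio of Sod1KO over WT was −0.066 among mSC-like cells for Prx, against 1.13 among tSC-like cells. For Pllp the values were −0.37 and 1.64. Each value rests on 1 library per genotype, and the difference between the classes was not tested. Within the Btc cluster of the tSC-like class the values were −1.06 for Prx and −1.0 for Pllp. In the Bche cluster they were 0.54 for Prx and 0.44 for Pllp, the latter from 11 WT and 8 Sod1KO UMIs with an interval of −1.08 to 1.89.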

How the results depend on the processing

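No paired analysis was possible because each group has 1 library, and for the same reason no replicate could be left out. All 8 members stayed higher in SC-like than in other cells and in mSC-like than in tSC-like cells under every alternative, with log2 ratios of 1.75 or more. Of the 8 members, 2 in place of 5 were lower in Sod1KO mSC-like cells with more than 500 genes and less than 5% mitochondrial UMIs, where Pmp22 stood at 0.0845 and Prx at 0.0511. In tSC-like cells 8 in place of 2 were lower in the Btc cluster alone, where Mag stood at −1.13, Pmp2 at −0.37, Prx at −1.06, Mal at −2.03, Pllp at −1.0 and Ncmap at −1.33, whereas the Bche cluster alone gave −0.12 for Mal. Without doublet removal Ncmap in tSC-like cells was at −0.30. Classes set cell by cell from marker UMIs gave Mag −0.42 and Ncmap −0.49 in mSC-like and Ncmap −0.24 in tSC-like cells. With the mixed cluster counted as mSC-like, Mag was at −0.31 and Ncmap at −0.36, and without the Lgals3 subcluster Mag was at −0.0205. The cause of these reversals was not tested, and the alternatives on single clusters were chosen after seeing the data. The ratio of Mbp in mSC-like cells stayed below 0 (−0.87 to −0.14), as did that of Pllp (−0.97 to −0.11), and that of Pmp2 above 0 (0.80 to 1.4). Of the single-gene values, 325 moved by less than their interval, 304 by more, and 16 whose interval excluded 0 changed sign. Values whose interval held 0 are not among the 16, such as Mal in mSC-like cells, which went from −0.01 to 0.08 under the stricter cell filter. Median-of-ratios scaling shifted all genes by 0.28 in the comparison of SC-like with other cells, by −0.14 in that of mSC-like with tSC-like cells, and by −0.02 and −0.05 between genotypes. Depth limits Pmp2 and, in tSC-like cells, Mag, Pllp and Ncmap.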
